A study of Mus musculus with 1078 samples.

Results

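The cells described here were labelled malignant by the authors although they came from the CD31-positive sort, a gate set to collect tumor endothelial cells (TECs) with an antibody against the adhesion protein encoded by Pecam1. They were found by taking, among the wells of the CD31-positive plates, every cell that the deposited annotation calls malignant. This took 37.3% of the 314 cells on these plates, in a series of 1078 cells. By treatment they were 51 of 67 cells (76.1%) on the losartan+anti-PD1 plate, 25 of 82 (30.5%) on the losartan plate, 8 of 89 (8.99%) on the anti-PD1 plate and 33 of 76 (43.4%) on the control plate. The other cells of these plates were 16, 57, 79 and 43 TECs, plus 2 oligodendrocytes on the anti-PD1 plate. The tumors were GL261, a mouse glioma line implanted in the brain of C57Bl/6 mice, from which the line derives, 6 to 8 wk old and of both sexes. From a tumor diameter of 1 mm, mice received losartan, an angiotensin receptor blocker, at 60 mg/kg daily or phosphate-buffered saline. After 1 wk of that treatment they received anti-PD1 antibody at 200 μg per mouse every 3 d for 3 doses, or a control antibody (IgG). The losartan+anti-PD1, losartan, anti-PD1 and control groups are the 4 combinations, and every tumor is the same transplanted line. GL261 is an established line, so its cells share 1 origin, and no engineered allele separates the groups. Cells labelled malignant that differ from the rest by markers, Y-linked RNA or chromosome profile are described below.

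Blood vessels of the brain are lined by endothelial cells that bind each other through VE-cadherin (Cdh5) and claudin-5 (Cldn5) and carry CD31 (Pecam1) on their surface. Cells of a glioma grow close to these vessels and draw on glial programs, among them the transcription factors Olig1, Olig2 and Sox10 of the oligodendrocyte lineage. Tumor cells of 1 clone can still differ in state: some divide, some answer interferon and display antigen on major histocompatibility complex (MHC) molecules, and some use the genes of low oxygen and glycolysis.

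RNA was read by Smart-seq2, in which full-length cDNA of 1 sorted cell per well is amplified. Values of the CD31-positive plates are TPM, transcript abundances scaled to a fixed total, and read depth is unknown, so precision is judged from how many genes a cell shows. All values below are per 100000 transcripts of a cell (TP100K). The malignant cells had a median of 7042 genes (range 1258 to 7993), TECs of the same plates 3126 (1023 to 7682), and the authors kept no cell above 8000 genes. By plate, the median was 7181 genes with losartan+anti-PD1, 7008 with losartan, 5304.5 with anti-PD1 and 7188 with control. The labels tie no cell to a mouse. Each treatment therefore counts as 1 sample, treatment and plate cannot be told apart, and no test between groups was run and no p-value computed. The malignant and endothelial labels rest on clusters of these same genes, and the paper checked its malignant clusters by copy number inferred from expression. Ratios between those types are therefore a description as well. Intervals are exact binomial (Clopper-Pearson) 95% intervals and cover counting error over cells only. Where a count is 0, the share it allows is instead 3 divided by the number of cells, which lies below the exact limit.

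The label was checked against its 6 markers before anything else. These are Gpnmb (a lysosomal and surface glycoprotein), Moxd1 (a monooxygenase-like protein), Syt4 (a vesicle protein), F3 (tissue factor, which starts coagulation), Olig1 and Serpina3n (a secreted serine protease inhibitor). On the losartan+anti-PD1, losartan and control plates, 98.2% of the cells had at least 5 of the 6 above 0 (50 of 51, 25 of 25 and 32 of 33), and 95 cells had all 6. On the anti-PD1 plate 2 of 8 cells did. The mean of Gpnmb was 149.04 TP100K with losartan+anti-PD1, 115.8 with losartan, 9.30 with anti-PD1 and 139.6 with control. Moxd1 had means of 96.03, 74.6, 1.69 and 120.07 TP100K in the same order of plates. The mean of Olig1, at 55.1, 77.8, 67.7 and 86.2 TP100K, did not set the anti-PD1 plate apart. By share it was lower there, above 0 in 5 of 8 cells. On the losartan+anti-PD1, losartan and control plates it was above 0 in 47 of 51, 23 of 25 and 32 of 33. The plot of markers per cell shows the anti-PD1 cells scattered between 0 and 6 markers.

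**Figure D1:**
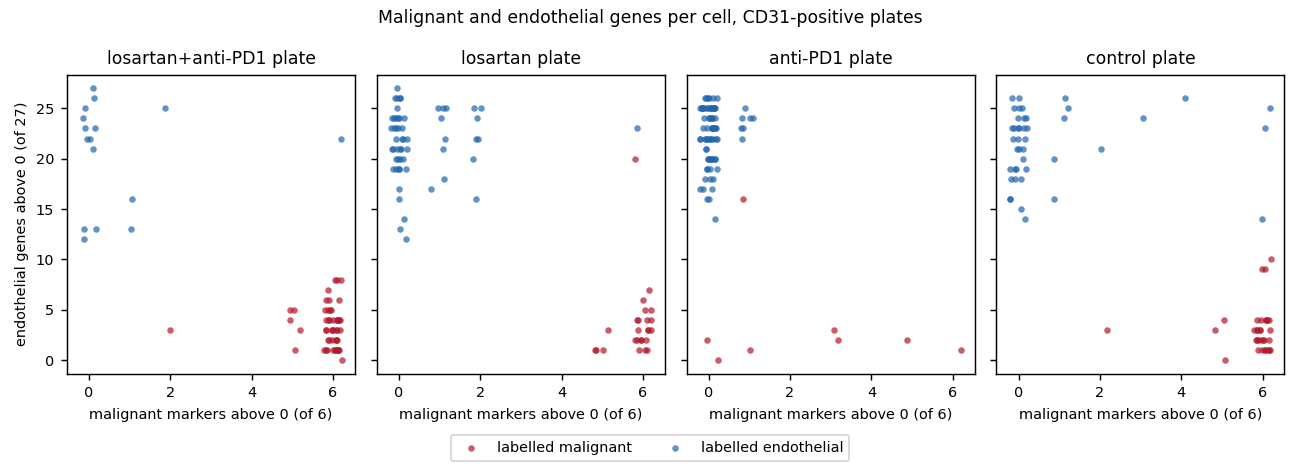
Number of malignant markers above 0 (x axis, of 6, points spread sideways) and of endothelial genes above 0 (y axis, of 27) in each cell labelled malignant (red) or endothelial (blue) on the 4 CD31-positive plates. On 3 plates the red cells gather at 5 or 6 markers with few endothelial genes, on the anti-PD1 plate they spread from 0 to 6 markers, and the highest red point has 20 endothelial genes.

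RNA of the Y chromosome set the anti-PD1 cells apart too. All 8 had RNA of at least 1 of the genes Ddx3y, Uty, Eif2s3y and Kdm5d, with a sum of 1.203 to 24.4 TP100K. On the other 3 plates 6 malignant cells (5.50%) had any, and in 2 of them the sum was above 1 TP100K. Y-linked RNA was found in 71.3% of TECs of the 4 plates and in 61.8% of 327 T cells of the CD3-positive plates. The same split was seen in malignant cells of the CD45-negative sort, where Y-linked RNA was found in 1 of 44 cells with losartan+anti-PD1, 1 of 47 with losartan, 5 of 8 with anti-PD1 and 2 of 49 with control.

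The level of whole chromosomes gave another measure, which the 6 markers did not set. It is not independent of the label, because the paper also checked its malignant clusters by copy number inferred from expression. Scores of single cells from that check were not used here. For each plate, the log2 ratio of malignant over endothelial means was taken over 9944 genes, and the median of all genes was subtracted from the median of each chromosome. Genes of chromosome 15 stood at 0.36 with losartan+anti-PD1, 0.39 with losartan, −0.03 with anti-PD1 and 0.35 with control. Those of chromosome 16 stood at −0.37, −0.31, 0.01 and −0.30, and those of X at 0.34, 0.29, 0.02 and 0.25. Thus 3 plates had a shared profile and the anti-PD1 plate was nearly flat, with an SD over chromosomes of 0.034 on the anti-PD1 plate and of 0.166 to 0.178 on the other plates. Malignant cells of the CD45-negative sort (3 plates, against 38 other cells of that sort) gave the same shape. Over 20 chromosomes, its correlation with the profile of the CD31-positive plates was 0.95 with losartan+anti-PD1, 0.97 with losartan, −0.02 with anti-PD1 and 0.96 with control. Most of the 38 other cells, among them 29 oligodendrocytes and 5 endothelial cells, were on the anti-PD1 plate of that sort. Its control plate held malignant cells only, so these ratios are not within a plate. The 8 malignant cells of the CD45-negative anti-PD1 plate, left out of that profile, had an SD over chromosomes of 0.06 and a correlation of 0.15 with it. The genes are the same in each profile, ratios within a sort were used because the sorts are in different units, and DNA copy number was not measured.

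**Figure D2:**
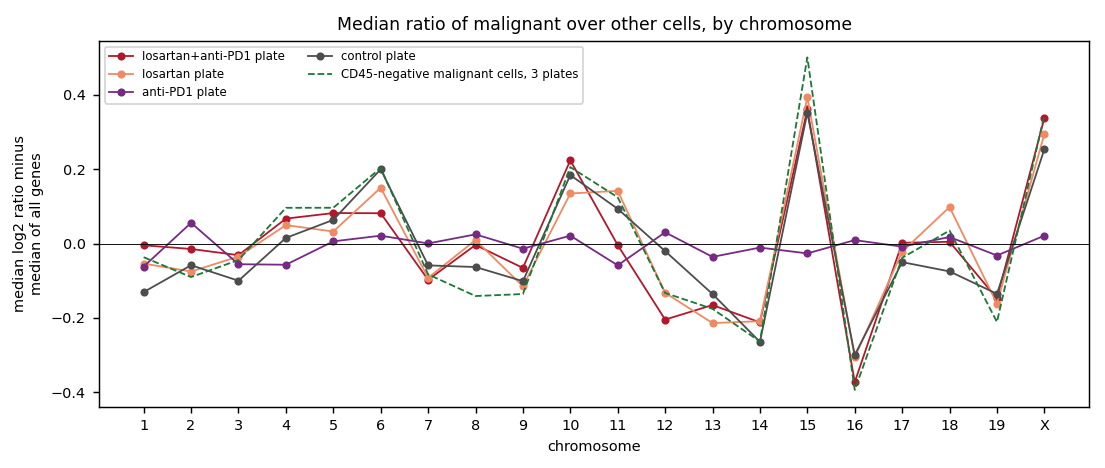
Median log2 ratio of malignant over other cells per chromosome, after subtracting the median of all genes (y axis), for the 4 CD31-positive plates (against endothelial cells) and for 3 CD45-negative plates (dashed, against the other cells of that sort). The lines of the losartan+anti-PD1, losartan and control plates peak at chromosome 15 (0.35 to 0.39) and dip at chromosome 16, whereas the anti-PD1 line stays between −0.06 and 0.06.

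Each cell was then set against the profile of the CD45-negative malignant cells. The 8 cells of the anti-PD1 plate had a median correlation of 0.04 (−0.36 to 0.39), and 0 of them were above 0.5. The cells of the other 3 plates had a median of 0.85 (0.23 to 0.97), with 93.6% above 0.5. TECs had a median of 0.01, with 4 cells (2.05%) above 0.5, of which 3 also had all 6 malignant markers.

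The 8 anti-PD1 cells were not alike. Astrocyte genes, such as Gfap and Aldoc, were above 0 for a median of 7.5 of 10 (2 to 10) in these cells and of 4 of 10 (1 to 9) on the other 3 plates, with summed medians of 434 and 27.6 TP100K. Well B06 had all 10 astrocyte genes, at 3581 TP100K. Well C08 had 0 malignant markers and 9 of 11 pericyte and smooth muscle genes, at 2096 TP100K, and well G03 had 1 malignant marker and 16 of 27 endothelial genes. Wells A06, G06, G03 and F01 had 31 to 39 of 40 genes of the G2/M phase, and the other 4 wells had 4 or 5. As a group the 8 cells differed from the other malignant cells in Y-linked RNA and the chromosome profile, but single cells overlapped. Wells F01 (0.39) and C08 (0.36) had higher correlations than losartan+anti-PD1 well F06 (0.35), which had 6 markers. The Y-linked sum of well G03 (1.203 TP100K) was below that of losartan well A01 (1.336 TP100K). By markers 6 of the 8 cells stood apart, whereas E12 (6 of 6) and A06 (5 of 6) met the label. Many of the shares and counts that these cells move are therefore also given without them. Well G07 of the control plate resembled them, with 2 markers, 9 astrocyte genes, 14.3 TP100K of Y-linked RNA and a correlation of 0.23, the lowest of the 3 other plates.

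The next question was whether these CD31-sorted cells hold endothelial RNA. Pecam1, the gene of the sorted protein itself, was above 0 in 5 malignant cells (4.27%, interval 1.40 to 9.69%) and in 94.9% of TECs. Its highest value in a malignant cell was 2.14 TP100K, against a mean of 55.9 TP100K in TECs. Cdh5 was above 0 in 1 malignant cell (0.855%) and in 88.7% of TECs. Cldn5 was above 0 in 15 malignant cells (12.8%, interval 7.36 to 20.3%), with a median of 0.476 TP100K among those cells, and in 89.7% of TECs, with a median of 1350 TP100K. Thus most malignant cells lacked the 3 genes. Cldn5 was at most 1.48 TP100K in 13 of the 15 cells, and the other values were 578.8 TP100K in losartan well A01 and 47.1 TP100K in anti-PD1 well G03. Erg, a transcription factor of endothelium, was above 0 in 73 TECs (37.4%) and in 0 malignant cells. That 0 allows a share of up to 2.56% (exact limit 3.10%).

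Any of the 3 genes was found in 18 malignant cells (15.4%, interval 9.38 to 23.2%) and in 100% of TECs. Without the anti-PD1 plate the malignant share was 15.6%, with 4.59% for Pecam1, 0.917% for Cdh5 and 12.8% for Cldn5. In other cells that should lack them, the share was 2.03% (3 cells) in malignant cells of the CD45-negative sort and 51 of 327 (15.6%) in T cells. T cells can carry CD31 themselves, and 48 of those 51 had Pecam1. The medians of genes detected were 7042 in the CD31-sorted malignant cells, 7038.5 in the CD45-negative ones and 2046 in T cells. The CD45-negative values are expected counts and not TPM, so for single genes only shares above 0 are set side by side between the sorts. Cldn5 was above 0 in 0 CD45-negative malignant cells, which allows up to 2.03% (exact limit 2.46%). Both limits lie below the interval of the CD31-positive sort, but sort and library preparation cannot be told apart.

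Over 27 genes of endothelial identity, malignant cells had a median of 3 above 0 (0 to 20), TECs 22 (12 to 27), CD45-negative malignant cells 2 (0 to 7) and T cells 1 (0 to 6). Of these 27, the genes found most often in malignant cells were Ramp2, which helps receptors of adrenomedullin, and Itm2a, a membrane protein. Ramp2 was above 0 in 54.7% of CD31-sorted malignant cells, 90.8% of TECs and 44.6% of CD45-negative malignant cells, and Itm2a in 50.4%, 79.5% and 41.9%. Flt1, a receptor of VEGF, had 31.6%, 98.5% and 29.1%. The levels were low, as Ramp2 had a mean of 4.37 TP100K in CD31-sorted malignant cells and 148.3 in TECs. Plvap, a protein of fenestrated vessels, was above 0 in 36.8% of malignant cells (mean 0.735 TP100K) and 18.5% of TECs (mean 26.03 TP100K). In CD45-negative malignant cells its share was 16.9% (interval 11.2 to 23.9%), and in those of the CD31-positive sort 36.8% (28.03 to 46.2%). The sorts differ in library protocol and units, and these intervals do not cover spread between plates or preparations. No difference between the sorts is therefore concluded.

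A pair of cells stood above the rest. Losartan well A01 had 20 of the 27 genes at a sum of 1873 TP100K, 579 of it from Cldn5, together with all 6 malignant markers. Anti-PD1 well G03 had 16 genes at 129.6 TP100K. The remaining cells had at most 10. Among these, position on the plate moved with the count: in plate column 5, which held malignant cells on 2 plates (losartan+anti-PD1 and control), the 11 cells had a median of 8 genes (1 to 10), and 8 of 11 (72.7%) had Pecam1, Cdh5 or Cldn5. In the other columns of those 2 plates, 4 of 73 cells (5.48%) had any of the 3, and none had more than 7 of the 27. Column 5 was singled out after the values were seen, and its part in the shares was not tested. In the other direction, 5 TECs (2.56%) had at least 5 of the 6 malignant markers, with 14 to 25 of the 27 endothelial genes.

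Setting malignant cells against TECs of the same plate shows what marks them. Ratios are log2 of the mean TP100K after adding 1, so they understate differences of low genes, and they are given as the mean and SD of 4 plates (n = 4) weighed equally. Of 9979 genes above 0 in at least 25% of either type, 436 (4.37%) had a log2 ratio of at least 1 on each plate and 613 (6.14%) of at most −1. Without the anti-PD1 plate, 892 (8.94%) were past this fold upward and 861 (8.63%) downward on the other 3 plates. The median over all genes was 0.08. Scaling each cell by its 75th percentile instead moved that median to 0.91 and the counts to 1941 higher and 368 lower, so which type has more genes higher depends on the scaling. The median of genes detected was higher in malignant cells than in TECs on every plate, and its part in these counts was not tested.

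Serpina3n had the highest ratio over the 4 plates, 6.07 ± 0.66 (SD), with means of 73.7, 61.9, 126.6 and 60.97 TP100K in malignant cells of the losartan+anti-PD1, losartan, anti-PD1 and control plates. Its medians were 34.96, 35.7, 14.5 and 31.2 TP100K in the same order, and on the anti-PD1 plate it was above 0 in 4 of 8 cells. Without the anti-PD1 plate its ratio was 5.76, below those of Gpnmb (6.02) and Lgals1 (5.78). In TECs Serpina3n was at 0.110, 0.284 and 0.295 TP100K on the losartan+anti-PD1, losartan and control plates and listed at 0 in the 79 TECs of the anti-PD1 plate. Over the 4 plates Lgals1, the carbohydrate-binding protein galectin-1, followed at 5.65 ± 0.33. Olig1 had 5.52 ± 0.40 (71.7 TP100K in malignant cells and 0.573 in TECs as means of the plates), and Cd63, a tetraspanin of lysosomes and vesicles, 5.12 ± 0.36 (212.5 TP100K in malignant cells and 4.82 in TECs). These 4 genes had an SD of at most 0.66 between plates. Gpnmb (5.35 ± 1.42), Syt4 (5.20 ± 1.04), F3 (4.82 ± 1.42) and Moxd1 (4.52 ± 2.19) varied more, since the anti-PD1 plate was low, and without it they had means of 6.02, 5.70, 5.53 and 5.55. The rest of the highest 15 were the brain-type creatine kinase Ckb (4.76), the fatty acid binding proteins Fabp5 (4.75) and Fabp7 (4.25), Plekhb1 (4.70), the tubulin Tubb2b (4.52), the galectin Lgals3 (4.31) and the retinoid binding protein Rlbp1 (4.26). Without the anti-PD1 plate Fabp7 was at 3.70.

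At the other end were genes of endothelium. Cldn5 had the lowest ratio, −7.95 ± 1.67, with 7.32 TP100K in malignant cells and 1007 in TECs as means of the plates. Its ratio on the losartan plate (−5.61) was nearer to 0 than on the losartan+anti-PD1, anti-PD1 and control plates (−9.00, −7.90 and −9.28), and well A01 is on that plate. Egfl7, secreted by endothelium, had −7.43 ± 1.11, and the surface sialomucin Cd34 had −6.18 ± 0.08, the same on every plate to within that spread. Ctla2a (−6.96), Ly6c1 (−6.42), Pglyrp1 (−6.36), the junction protein Esam (−6.19), the sialomucin Emcn (−6.18) and the organic anion transporter Slco1a4 (−6.05) were the others, with the heat shock gene Hspa1a (−6.50 ± 2.21). Of the 27 endothelial identity genes 26 were past the fold downward on all 4 plates, and the exception, Plvap, had −5.77, −3.57 and −5.19 on the losartan+anti-PD1, losartan and control plates and −0.01 on the anti-PD1 plate.

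**Figure D3:**
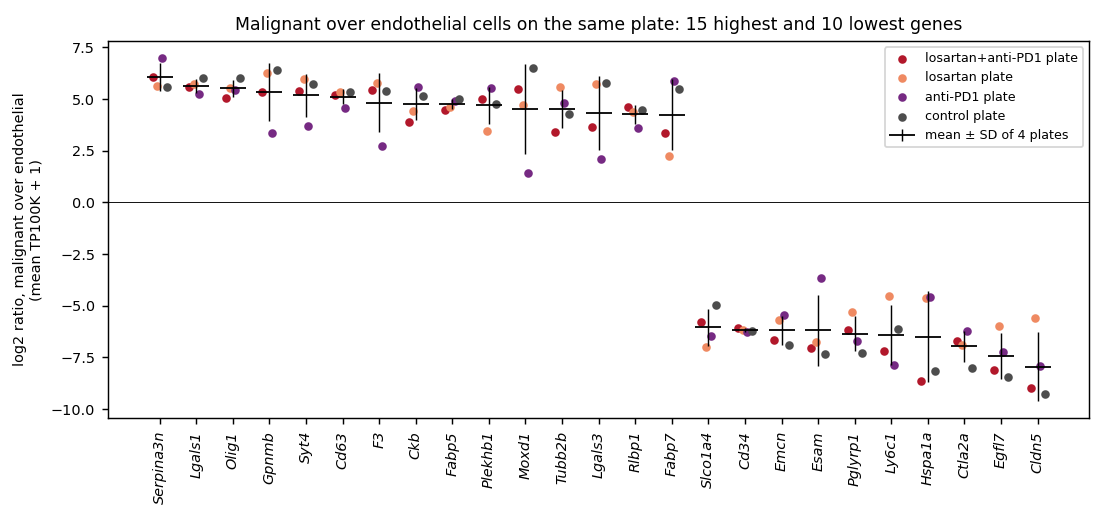
Log2 ratio of the mean (TP100K + 1) in malignant cells over endothelial cells of the same plate (y axis) for the 15 highest and 10 lowest genes past the fold on all 4 plates. Colored points are the plates, and bars the mean ± SD of 4 plates. The anti-PD1 point lies lowest for Gpnmb, Syt4, F3, Moxd1, Lgals3, Lgals1, Cd63, Rlbp1, Ly6c1 and Cd34. It lies highest for Serpina3n, Ckb, Plekhb1, Fabp7, Ctla2a, Hspa1a, Emcn and Esam.

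The 31 gene lists put these genes in groups, and each count is to be read against 4.37% of all genes higher and 6.14% lower. Of 16 glial progenitor genes, 10 were past the fold upward and 0 downward, with a median of 2.12 (1.77 without the anti-PD1 plate). Sox10, which drives the oligodendrocyte lineage, had 3.29 ± 0.25 (9.20 TP100K in malignant cells and 0.0299 in TECs), Sox2 had 2.47 ± 0.26 and Olig2 1.84 ± 0.21. The phosphatase receptor Ptprz1 had 2.99 ± 0.96. Markers of differentiated glia were partly higher too: Cnp (2.40) and S100b (3.78) passed the fold upward, and Mal (−3.84) downward. Defining leukocyte genes were nearly absent, since 1 of 20 leukocyte and microglia genes passed the filter on low values, Tmem119 (2.52 ± 1.75, and 0 on the anti-PD1 plate), and none of 11 pericyte genes did.

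Of 40 G2/M genes 15 were past the fold upward and 0 downward (median 1.66), and of 29 G1/S genes 6 and 0 (median 1.22). Without the anti-PD1 plate the G2/M median was 1.36. Cdc20, the activator of the anaphase-promoting complex, had 3.38 ± 0.46. In the hypoxia and glycolysis list the members split: the glycolytic genes Pgk1 (2.66 ± 0.52), Eno1 (2.21 ± 0.31) and Gapdh (1.90 ± 0.36) with Mif (2.65) were higher, whereas the glucose transporter Slc2a1, which brain endothelium expresses highly, was lower (−2.76 ± 1.59), as was Ndrg1 (−3.58). The list had 5 of 26 genes upward and 4 downward.

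Ligands that act on vessels had a median ratio of −1.58. Of 20 measured, 1 was past the fold upward, Wnt7b (2.11 ± 0.50), a Wnt ligand that supports the blood-brain barrier, and 7 downward, among them the chemokine Cxcl12 (−4.72), endothelin Edn1 (−4.26) and the Tie2 ligand Angpt2 (−2.84). Vegfa was above 0 in 30.8% of malignant cells and 1.54% of TECs but low in both, at 0.149 TP100K in malignant cells and 0.0295 in TECs. For coagulation and proteolysis 3 of 15 were past the fold upward (Serpina3n, F3 and the gelatinase Mmp2, 2.89 ± 0.78) and 3 downward (thrombomodulin Thbd, −3.68, the protein C receptor Procr and the plasminogen activator Plat). Basement membrane and matrix genes had 0 upward and 5 of 16 downward, and 13 of 16 downward without the anti-PD1 plate, with fibronectin Fn1 at −5.10 ± 0.64 and the type IV collagens Col4a1 at −4.12 and Col4a2 at −4.70.

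Among molecules that can bind endothelium, the hyaluronan receptor Cd44 (3.17 ± 0.26), Ncam1 (2.44), Cd9 (2.23) and Cd63 were past the fold upward, and Pecam1 (−5.74 ± 0.40), F11r (−4.09), Cdh5 (−3.88 ± 0.41), Esam and Itga5 downward. Of 18 immediate early genes 8 were past the fold downward, with a median of −1.79, among them the flow-responsive factor Klf2 (−3.73) and the phosphatase Dusp1 (−3.64). Myc was the 1 gene of that list past the fold upward (2.17 ± 0.48). Hspd1 (2.82) and Hspe1 (2.71), the mitochondrial chaperonins, were higher, and Hspa1a and Hspb1 (−6.02 ± 3.66), both inducible, lower. The medians of the coagulation (−0.24), interferon (−0.72), MHC class I (−0.23) and adhesion (−0.64) lists changed sign with scaling by the 75th percentile (0.61, 0.30, 1.10 and 0.26), so no direction is given for those lists.

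The other lists are given by their counts past the fold on all 4 plates, beside 4.37% of all genes higher and 6.14% lower. Upward and downward counts were 3 and 3 of 14 for heat shock, 3 and 4 of 18 for mesenchymal and wound, 2 and 1 of 12 for oxidative and metal stress, 3 and 0 of 19 for lysosome, 3 and 0 of 6 for neuropeptide and synaptic, and 0 and 1 of 13 for p53 target genes. They were 1 and 0 of 7 for MHC class II (H2-DMa, 2.12), 1 and 0 of 8 for imprinted growth, and 0 and 2 of 35 for interferon-induced genes. None of 19 MHC class I, 27 mitochondrial oxidative phosphorylation and 25 cytosolic ribosome genes passed on all 4 plates, while 12 ribosome genes did upward on the 3 plates without anti-PD1. On those 3 plates the counts were 3 and 0 for MHC class II, 3 and 0 for imprinted growth, 3 and 2 for p53 target, 5 and 4 for mesenchymal and wound, 0 and 3 for interferon-induced, 0 and 2 for MHC class I and 3 and 0 for oxidative phosphorylation genes. Of the lists for other cells, astrocyte had 3 and 0 of 6, myelinating oligodendrocyte 4 and 1 of 6, neuron 1 and 0 of 1, fibroblast 0 of 2 and sex-linked 0 of 3, and no red blood cell gene passed the filter. On the 3 plates without anti-PD1, astrocyte genes had 3 and 1, and sex-linked genes 0 and 2 with a median of −2.56.

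The anti-PD1 plate changed which genes led. Of the 15 highest genes, 10 stayed among the highest 15 without it. H19, an imprinted RNA silent in most adult tissue, had 4.70 ± 0.29 on the other 3 plates and 0.78 on the anti-PD1 plate, and the imprinted zinc finger gene Plagl1 3.08 ± 0.45 and −0.08. The metallothionein Mt2 had 4.98 ± 0.32 and 1.26. A mean of the anti-PD1 plate can rest on few cells, since F3 and Syt4 were above 0 in 2 of the 8, Gpnmb and Moxd1 in 3 and Serpina3n in 4.

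The states of the cells were read on the losartan+anti-PD1, losartan and control plates, without the anti-PD1 plate. For each gene list a score was taken per cell, the mean ln(TP100K + 1) of the list minus that of genes above 0 in at least 25% of cells. Over the cells of the 3 plates together, the SD was 1.09 for MHC class II, ahead of G2/M (0.83), G1/S (0.72), interferon-induced (0.50), MHC class I (0.44) and hypoxia and glycolysis (0.42) genes, and 0.33 for the ribosome list. Plate means of MHC class II differ, and within plates its SD was 0.90 with losartan+anti-PD1, 0.84 with losartan and 0.99 with control, beside 0.67, 0.93 and 0.96 for G2/M. A list of few genes spreads more by counting, and MHC class II has 7. Principal components were then taken over 1500 variable genes. With all 4 plates, the first component (10.8% of the variance) set Apoe, Gfap, Fxyd1, Atp1b2 and Ndrg2, which astrocytes express, against Syt4, Igtp, F3 and Moxd1, and it separated the anti-PD1 plate (mean 29.96) from the losartan+anti-PD1, losartan and control plates (−2.55, −1.71 and −2.02). It also followed genes detected (r = −0.88 over the cells of 4 plates).

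Without the anti-PD1 plate, the first component (9.04%) followed genes detected (r = 0.87 over the cells of 3 plates). The second (6.18%) followed the G2/M score (r = 0.87), with Birc5, Ube2c, Rrm2 and Ccnb1 at its high end and Anxa5, Anxa2, Plin2 and Lgals3 at its low end. A further component (4.43%) set the interferon-induced Igtp, Gbp2 and Gbp4 and the MHC class II genes H2-Ab1 and H2-Eb1 against Slc2a1 and Ero1l, an oxidase of the endoplasmic reticulum that low oxygen induces. Its genes were looked at after the first 2 components, and plate means were 3.80 with losartan+anti-PD1, −5.74 with losartan and −1.52 with control. Cells of a plate share their tumor and library preparation, so these correlations describe the cells and are not replicated.

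Genes of the G2/M phase were found together in many cells. At least 10 of 40 G2/M genes were above 0 in 83 malignant cells (70.9%, interval 61.8 to 78.96%) and in 15 TECs (7.69%), whose medians of genes detected were 7042 and 3126. By plate the share was 36 of 51 (70.6%) with losartan+anti-PD1, 19 of 25 (76%) with losartan, 4 of 8 (50%) with anti-PD1 and 24 of 33 (72.7%) with control, and 72.5% without the anti-PD1 plate. These shares overlap in their intervals. The number of genes ran from 1 to 40 with a median of 15, 33 cells had 30 or more, and 22 lay near the threshold, at 8 to 11. The number of genes is a range, and the threshold of 10 does not mark a gap in it.

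Many genes of mitosis carry a CHR element (cell cycle genes homology region, TTTGAA) and a CCAAT box (CCAAT) before their start, and the promoters of a pair of G2/M genes are shown for these elements. In the 150 bases before the start, read on both strands, CHR was found in 11 of 35 G2/M promoters matched (31.4%) and in 9.24% of 27025 RefSeq promoters, CCAAT in 26 of 35 (74.3%) and 25.3%, and both in 10 of 35 (28.6%) and 2.32%. CCAAT was also common in other lists, in 13 of 22 G1/S (59.1%), 10 of 17 MHC class I and 3 of 4 MHC class II promoters. It was in 8 of 25 hypoxia and 6 of 28 interferon-induced promoters. Sequences are RefSeq promoters on GRCm38.p6, 5′ to 3′ on the strand of the gene, with capitals for CHR and CCAAT in either orientation. Ube2c (chr2:164769779-164769928, plus strand), which encodes the E2 enzyme of the anaphase-promoting complex, and Cdc20 (chr4:118437344-118437493, minus strand) each had 1 CHR and 2 CCAAT boxes.
Ube2c: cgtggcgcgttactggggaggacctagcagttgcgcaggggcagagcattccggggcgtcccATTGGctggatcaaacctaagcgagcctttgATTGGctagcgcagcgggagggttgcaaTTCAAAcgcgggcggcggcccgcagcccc
Cdc20: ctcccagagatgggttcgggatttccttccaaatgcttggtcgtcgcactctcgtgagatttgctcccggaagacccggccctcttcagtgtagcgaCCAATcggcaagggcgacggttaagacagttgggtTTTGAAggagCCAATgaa
In the malignant cells, Ube2c was above 0 in 30 of 51 cells with losartan+anti-PD1, 16 of 25 with losartan, 4 of 8 with anti-PD1 and 21 of 33 with control. Its median and highest value were 6.91 and 119.4 TP100K with losartan+anti-PD1, 13.6 and 272.6 with losartan, 6.42 and 546.6 with anti-PD1, and 12.1 and 275.7 with control, and the lowest was 0 on each plate. Cdc20 was above 0 in 36, 19, 4 and 24 cells, with medians of 6.18, 7.95, 0.901 and 6.77 TP100K in the same order. A motif match is a description of these letters, not a measured site.

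Interferon-induced genes can carry an ISRE (interferon-stimulated response element), read here by its core (GAAA, any 2 bases, then GAAA), and 2 promoters of GTPase genes with it are shown, since these genes lead the component just described. The core was in 13 of 28 interferon-induced promoters matched (46.4%), in 2 of 17 of MHC class I, in 1 of 25 of hypoxia genes and in 1.60% of all RefSeq promoters. Gbp2 (chr3:142620513-142620662, plus strand) is a guanylate-binding protein and Igtp (chr11:58199406-58199555, plus strand) an immunity-related GTPase, each with 1 core in capitals.
Gbp2: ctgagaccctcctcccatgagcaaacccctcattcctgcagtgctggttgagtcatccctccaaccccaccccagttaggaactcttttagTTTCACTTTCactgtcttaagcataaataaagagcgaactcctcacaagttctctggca
Igtp: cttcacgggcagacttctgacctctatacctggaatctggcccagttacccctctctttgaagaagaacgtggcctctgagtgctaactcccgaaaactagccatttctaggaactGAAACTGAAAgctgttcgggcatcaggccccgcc
Igtp had a lowest, median and highest value of 0.563, 187.6 and 405 TP100K with losartan+anti-PD1, 0, 58.4 and 250.8 with losartan, 0, 0 and 136.3 with anti-PD1, and 0, 74.2 and 214.6 with control. Gbp2 had medians of 63.6, 11, 3.11 and 21.9 TP100K in that order. The ranges of the plates overlap, and the median was highest with losartan+anti-PD1 for both genes.

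Scores of some lists moved together from cell to cell. MHC class I and MHC class II scores had a correlation of 0.73 over the cells of 3 plates, and within plates 0.70 with losartan+anti-PD1, 0.71 with losartan and 0.55 with control. G1/S and G2/M scores had 0.60. Hypoxia and interferon scores went opposite ways (−0.46), at −0.38 with losartan+anti-PD1, −0.76 with losartan and −0.08 with control, so the relation was strongest on the losartan plate and near 0 on the control plate. The mesenchymal and wound score had 0.48 with the hypoxia score. A shared depth or base level of a cell enters every score, and the cells are not replicates.

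**Figure D4:**
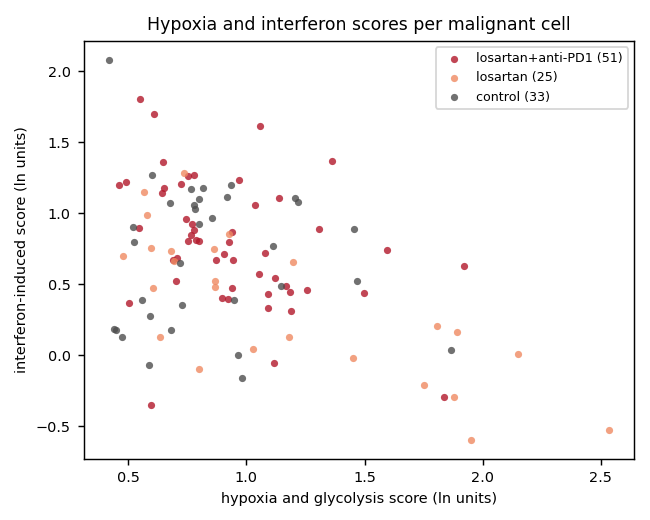
Score of hypoxia and glycolysis genes (x axis) and of interferon-induced genes (y axis), both in ln units, in each malignant cell of the losartan+anti-PD1, losartan and control plates. Points at the lower right, with high hypoxia and low interferon scores, are mostly of the losartan plate, whose mean scores were 1.15 and 0.36.

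Malignant cells with losartan+anti-PD1 (51 cells) were set against control (33 cells) to ask what differs between these treatments. Over 9979 genes, 57 (0.571%) had a log2 ratio of at least 1 and 84 (0.842%) of at most −1. Of all genes 45.8% were higher. With means of ln values, which weigh single high cells less, 48 were past the fold upward and 17 downward. All 7 MHC class II genes were higher, 5 past the fold, with a median of 1.79. H2-Ab1, a chain of the MHC class II molecule, had a mean of 121.7 TP100K with losartan+anti-PD1 and 26.5 with control (ratio 2.16), and medians of 97.9 and 13.8. H2-Aa had means of 107.9 and 28.6 TP100K (1.88), H2-Eb1 78.1 and 18.9 (1.99), the invariant chain Cd74 83.3 and 23.4 (1.79) and the peptide exchanger H2-DMa 27.9 and 11.2 (1.25). H2-DMb1 (0.88) and the regulator Ciita (0.63) were also above 0 but not past the fold. Values of single cells overlapped: the sum of the 7 genes had a lowest, median and highest value of 29.9, 403 and 1602 TP100K with losartan+anti-PD1, 1.92, 119.2 and 764 with losartan, 0, 6.11 and 1159 with anti-PD1, and 0.735, 70.5 and 534 with control.

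Markers of leukocytes, which carry MHC class II in many tissues, were sparse in the same cells. Of 20 leukocyte and microglia genes, losartan+anti-PD1 cells had a median of 1 above 0 (0 to 3) and control cells 1 (0 to 13), with summed ranges of 0 to 168.5 and 0 to 175.7 TP100K. Ptprc (CD45) was at 0 in all 51 losartan+anti-PD1 cells, which allows up to 5.88%, and above 0 in 1 of 33 control cells. Most of the sums came from Tmem119, a microglia marker that was above 0 in 23 of 51 losartan+anti-PD1 and 13 of 33 control cells. Its mean was 24.2 TP100K with losartan+anti-PD1 and 12.1 with control (ratio 0.94), so it moved with the MHC class II genes, and its part in that result was not tested. The 1 cell with 13 such genes was control well E08. The median ratio of the MHC class II list was 1.75 in the cells with at least 5 malignant markers, which leaves out control well G07 but keeps E08.

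MHC class I and peptide loading genes were higher in 18 of 19 cases with losartan+anti-PD1 against control (45.8% of all genes were), but only Psmb9, a subunit of the immunoproteasome, was past the fold (1.13), and the median was 0.46. Interferon-induced genes went both ways. Gbp4 (2.18), Irf1 (1.503), Igtp (1.35), Iigp1 (1.16) and Gbp2 (1.15) were past the fold upward, Rsad2 (−1.75) and Ifit1 (−1.18) downward, and the median of 35 genes was −0.15. Irf1, a transcription factor that interferon gamma induces, had medians of 49.4 TP100K with losartan+anti-PD1 and 14.8 with control. Ratios of Rsad2, an antiviral enzyme, rested on means of 2.16 and 9.64 TP100K.

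Beyond these lists, the highest ratios were Gbp10 (2.43, with 20.2 and 2.92 TP100K), the chemokine Ccl5 (2.23), the collagen Col2a1 (2.18), the cathepsin Ctsh (1.92), Apoc1 (1.88) and Lect1 (1.81). A single cell gave 63.3% of the losartan+anti-PD1 sum of Ccl5. The lowest were Apoe (−4.27), the keratin Krt8 (−3.72), the histone Hist1h2ao (−2.40), the Notch ligand Dll3 (−2.15), Gstm1 (−1.88), Adck3 (−1.81), Rsad2, Fabp7 (−1.75), Gm6644 (−1.73) and Ccnb1 (−1.56). Several of these turn on control well G07: without it and the other cells under 5 markers, Apoe stood at −2.38, Gstm1 at 0.19 and Fabp7 at 0.46. In cells with 2000 to 6000 genes, 7 against 5, Apoe (0.22), Krt8 (2.997) and Ccnb1 (0.81) changed sign.

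G2/M genes had lower means with losartan+anti-PD1 than with control in 39 of 40 cases (45.8% of all genes were higher), 10 past the fold, with a median of −0.76, whereas the share of cells with at least 10 of these genes was alike, 70.6% and 72.7%. The sum of the 40 genes had medians of 57.4 and 61.2 TP100K and highest values of 1203 and 1737. Cells with 30 or more of the genes were 9 of 51 with losartan+anti-PD1 and 11 of 33 with control. The difference of means thus came with fewer cells at the top of the range. Among cells with 2000 to 6000 genes, 7 against 5, the median was 0.39.

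Malignant cells with losartan (25 cells) were set against control in the same way, over 9919 genes, of which 0.544% (54 genes) were past the fold upward and 1.24% downward. Hypoxia and glycolysis genes were higher in 20 of 24 cases, 4 past the fold, with a median of 0.51. Of all 9919 genes 40.8% were higher. Slc2a1 had a mean of 81.4 TP100K with losartan and 20.5 with control (ratio 1.94), but medians of 17.97 and 9.67 and highest values of 412 and 278.8, so the high values were in few cells. Ero1l had means of 45.3 and 11.9 TP100K (1.84), with 42.7% of the losartan sum in 1 cell. The mitophagy receptor Bnip3 (1.64) and the glucose transporter Slc2a3 (1.48) were the others. The sum of the list had a lowest, median and highest value of 876, 1584 and 5605 TP100K with losartan and 933, 1533 and 3756 with control, so the medians were close and the top of the range differed.

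Interferon-induced genes were lower with losartan in 33 of 35 cases, 8 past the fold, with a median of −0.56, beside a median of −0.07 over all genes. The chemokine Cxcl10 had −3.36, with means of 0.881 TP100K with losartan and 18.3 with control and with 5 of 25 and 12 of 33 cells above 0. Rsad2 had −1.97. The sum of the list had medians of 494 TP100K with losartan and 692 with control, beside 900 with losartan+anti-PD1 and 243.1 with anti-PD1. MHC class II genes had a median of 0.21, with 0 of 7 past the fold.

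**Figure D5:**
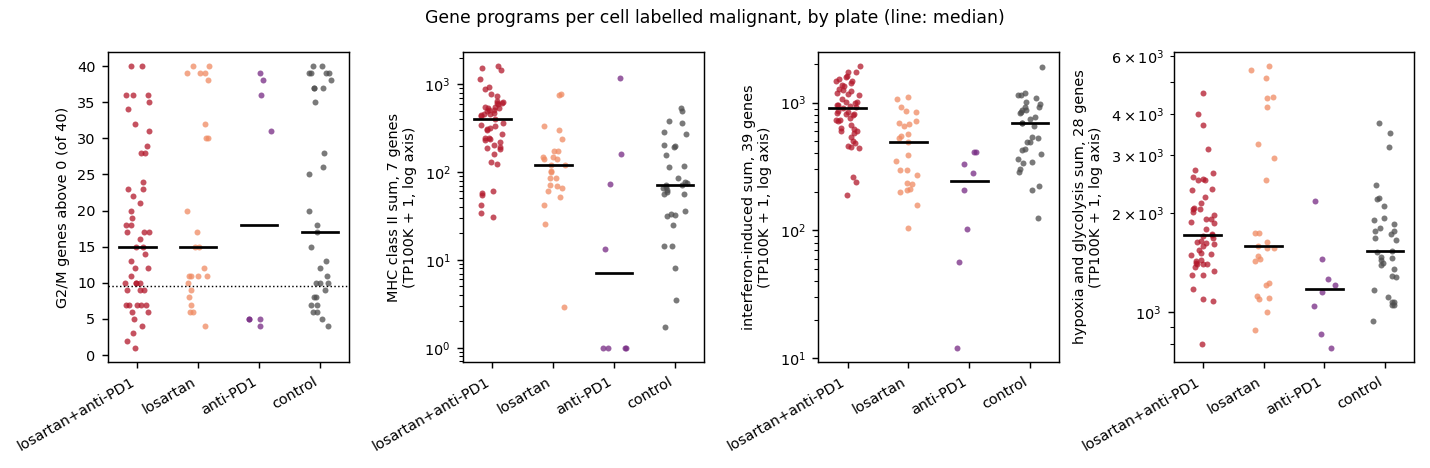
Number of G2/M genes above 0 (left, dotted line between 9 and 10) and summed TP100K + 1 of MHC class II, interferon-induced, and hypoxia and glycolysis genes (log axes) in each cell labelled malignant, by plate, with the median as a line. MHC class II sums are highest on the losartan+anti-PD1 plate (median 403 TP100K), hypoxia sums reach highest on the losartan plate (5605 TP100K), and ranges of all plates overlap.

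Several of the highest ratios with losartan came from well A01, the cell with 20 endothelial genes. The scaffold Slc9a3r2 stood at 2.76 with it and 0.01 without it, the inhibitor of differentiation Id1 at 2.28 and −0.62, Fxyd5 at 2.18 and 0.22, and Plgrkt at 1.81 and 0.23. Cited1 (1.99), Tgfbi (1.95), Gadd45g (1.83) and Itpk1 (1.76) changed little without it, but single cells gave 63.6% of the losartan sum of Cited1, 55.55% of Tgfbi, 34.7% of Gadd45g and 44.4% of Itpk1. The lowest, besides those named, were Apoe (−4.26), the imprinted gene Mest (−3.51), Fabp7 (−3.23), Gm6644 (−2.15), the prostaglandin D synthase Ptgds (−1.94), Gstm1 (−1.93), Amd1 and Gm9846 (both −1.85). In the cells with at least 5 markers, Apoe had −2.38, Fabp7 −1.05 and Gstm1 0.12. The anti-PD1 plate, with the 8 cells described above, is given by its levels only, and the losartan+anti-PD1 and losartan comparisons share the same control cells.

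Last, the malignant cells of the CD31-positive sort were set beside those of the CD45-negative sort (44, 47, 8 and 49 cells in the same order of treatments), by shares above 0. Both had a median of 6 of 6 markers and 11 of 20 glial progenitor genes. F3 was above 0 in 89.7% (interval 82.8 to 94.6%) of CD31-positive and 76.4% (68.7 to 82.9%) of CD45-negative malignant cells. Sox10 had 93.2% and 83.1%, H2-Aa 87.2% and 72.97%, and Cdc20 70.9% and 57.4%. G2/M genes above 0 had a median of 15 of 40 in the CD31-positive and 11 of 40 in the CD45-negative sort. Gpnmb was alike, at 94.9% and 92.6%. The 2 sorts were prepared with different library protocols and deposited in different units, so a sort cannot be told apart from its preparation.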

How the data were processed

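The authors prepared Smart-seq2 libraries from single sorted cells, set aside cells under 1000 or over 8000 genes or with fewer than 20 housekeeping genes, and deposited their annotation of cell types. Per the submitters' processing notes, Bowtie, TopHat, RSEM 1.2.8 and mm10 were used. The authors deposited TPM for the CD31-positive and CD3-positive plates, and RSEM expected counts, not scaled for depth, for the CD45-negative plates, as their values show. Therefore single genes were set side by side between sorts by shares above 0 only, and chromosomes by log2 ratios taken within a sort.

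The 117 malignant cells of the CD31-positive plates were compared with 195 TECs there, with 148 malignant cells of the CD45-negative plates and with 327 T cells. Each cell was scaled to 100000, means were taken per plate, and the ratio is log2 after adding a pseudocount of 1 to both means. A gene entered where 25% or more of one group had it above 0, and past the fold means a log2 ratio of at least 1 or at most −1, on each plate where several are used. Because no mouse is named, no test between groups was run. Named genes are the 6 markers, Pecam1, Cdh5 and Cldn5, the 15 highest and 10 lowest past the fold on 4 plates, the 10 highest and 10 lowest of each treatment comparison, the 10 leading genes at each end of the first 2 components, and 2 to 4 members of each list. Other genes were chosen after their values were seen: these are the genes that name single wells, further list members, and H19, Plagl1, Mt2 and Vegfa. The members and the 31 gene lists were chosen with earlier results of these data known. Components used 1500 genes of the highest variance among those above 0 in at least 10% of cells, and doublets were not called. Promoters are RefSeq, 150 bases before the start, on GRCm38.p6. Alternatives changed the pseudocount, filter, scaling, averaging, detection limit, genes detected and cells included. Those that leave out single wells, clusters or cells with few markers were chosen after seeing the data. Scripts were tested on simulated data. The tools were SciPy 1.17.1, matplotlib 3.10.9, NumPy 2.4.6 and pandas 2.3.3 under Python 3.11.15.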

Additional observations from a re-analysis of the deposited data

Results flagged for a closer look

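With 4 plates, a plate whose value lies far from the other 3 (by the 95% limit of Dixon's test) was looked for in 58 quantities, and 9 passed. The limit served as a flag and not as a test between groups. Its rate of about 1 in 20 holds for independent values. The 58 quantities overlap, and some genes were taken for extreme ratios on these plates, so the 9 are not weighed against that rate. In 8 of the 9 the anti-PD1 plate stood apart. The log2 ratio of malignant cells over TECs for F3 was 2.71 on that plate, against 5.42 with losartan+anti-PD1, 5.78 with losartan and 5.39 with control. For Esam it was −3.65 on the anti-PD1 plate, against −7.05, −6.73 and −7.32 in the same order. The median ratio of interferon-induced genes was −1.63 on the anti-PD1 plate, against −0.31, −0.39 and −0.30, and that of cytosolic ribosome genes −0.37, against 1.25, 1.03 and 1.15.

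Of malignant cells, 25% had at least 5 of the 6 markers on the anti-PD1 plate, against 98.04%, 100% and 96.97% with losartan+anti-PD1, losartan and control. Y-linked RNA was found in 100% on the anti-PD1 plate, against 1.96%, 8% and 9.09%. The median of genes detected was 5304.5 on the anti-PD1 plate, against 7181, 7008 and 7188. The SD of the chromosome medians was 0.0342 on the anti-PD1 plate, against 0.178, 0.174 and 0.166. These quantities come from the same 8 cells, so they are not separate observations, and the plate holds few malignant cells. The remaining quantity was the ratio of Pecam1, which was −5.15 on the control plate, against −6.00 with losartan+anti-PD1, −5.86 with losartan and −5.96 with anti-PD1.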

How the results depend on the processing

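Of the values that answer a comparison, 49 stayed close to the reported value under an alternative and 45 moved. Genes past the fold were judged by their number, not by their share. A filter that changes the genes tested can therefore move the number while the share stays similar. Of the values of single genes and lists 1122 stayed close, 292 moved and 21 were counted as changing sign. Sign changes of small list medians are not among the 21 and are counted as close or moved. Those of the coagulation, interferon, MHC class I and adhesion lists over TECs are examples. Read depth is unknown for these TPM values, and the cause of each shift was not tested. Ratios of malignant cells over TECs are taken within each plate. No paired analysis was possible because replicate numbers only name cells and each treatment has 1 plate. The share of malignant cells with Pecam1, Cdh5 or Cldn5 (15.4%) was 4.27% at a detection limit of 1 TP100K, 1.71% at 10 TP100K and 23.8% in cells with 2000 to 6000 genes (21 cells). The share with G2/M genes (70.9%) was 94.02% at 5 genes, 52.99% at 15 genes, 49.6% at a detection limit of 1 TP100K and 42.9% in cells with 2000 to 6000 genes.

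For malignant cells over TECs, 4.37% of genes were past the fold upward and 6.14% downward. These shares were 8.728% upward with a pseudocount of 0.1, 0.531% and 1.58% with a pseudocount of 10, 5.86% downward (of 6823 genes) with the filter at 50% of cells, 19.4% and 3.69% with scaling by the 75th percentile, 11.1% and 2.68% with means of ln values, 14.2% and 14.25% with all cells pooled, 2.05% upward in cells with 2000 to 6000 genes, and 8.88% upward without the anti-PD1 plate.

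For losartan+anti-PD1 over control (0.571% upward, 0.842% downward) they were 2.38% and 4.29% with a pseudocount of 0.1, 0.1002% and 0.0702% with 10, 0.673% downward (of 7282 genes) with the filter at 50%, 1.15% and 2.11% with the 75th percentile, 0.170% downward with ln means, 23.1% and 7.57% in cells with 2000 to 6000 genes (7 against 5 cells), and 2.998% and 4.69% without cells with at least 10 G2/M genes (15 against 9 cells). In cells with 2000 to 6000 genes Apoe stood at 0.22, Krt8 at 2.997, Gstm1 at 1.02, Fabp7 at 2.14, Gm6644 at 0.20, Ccnb1 at 0.81 and the G2/M median at 0.39. Fabp7 was at 0.12 with ln means. Without control well G07, Gstm1 was at 0.18 and Fabp7 at 0.44, and with at least 5 markers at 0.19 and 0.46.

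For losartan over control (0.544% upward, 1.24% downward) they were 2.52% and 6.82% with a pseudocount of 0.1, 0.0706% and 0.0807% with 10, 0.675% upward (of 14963 genes) with no filter, 1.04% downward (of 7421 genes) with the filter at 50%, 1.72% and 2.76% with the 75th percentile, 0.222% and 0.313% with ln means, 21.8% and 11.2% in cells with 2000 to 6000 genes (4 against 5 cells), and 4.93% and 7.64% without cells with at least 10 G2/M genes (6 against 9 cells). In cells with 2000 to 6000 genes Mest was at 0.32 and the G1/S median at 0.18. Without cells with at least 10 G2/M genes Slc9a3r2 was at −0.0377, Id1 at −2.96 and the G1/S median at 0.0395. Id1 was at −0.35 with ln means and −0.62 without well A01. Gstm1 was at 0.12 without well G07 and with at least 5 markers.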

Other observations

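On the losartan+anti-PD1 plate, 2 malignant cells lay in the deposited cluster 1, and the others of the sort lay in cluster 2. Control well E08 had 13 of 20 leukocyte and microglia genes (175.7 TP100K) and was the 1 malignant cell with C1qa, C1qb and Csf1r, which microglia express. Among TECs, losartan well G12 had all 6 malignant markers and a correlation of 0.89 with the chromosome profile of CD45-negative malignant cells.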
